A study of Mus musculus with 42 samples.

Results

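The mRNA levels of 10 endoplasmic reticulum (ER) stress genes were examined in liver, quadriceps muscle and visceral fat of wild-type (Wt) and Akt1+/- mice at 2 ages. The genes are Hspa5, Hsp90b1, Dnajb9, Herpud1, Xbp1, Ddit3, Atf4, Atf3, Trib3 and Asns. They were chosen by their gene names among the non-control features of the array, which gave 10 of 27745 gene names and 14 of 41174 probes, because Dnajb9 has 3 probes and Hsp90b1 and Trib3 have 2 each. All 14 probes were well above background on all 42 arrays.

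Proteins that enter the ER are folded there with the help of chaperones. When unfolded proteins accumulate, the sensors ATF6, IRE1 and PERK start the unfolded protein response: cleaved ATF6 and the XBP1 protein made from IRE1-spliced mRNA switch on chaperone and degradation genes, and PERK phosphorylates eIF2alpha, which slows translation in general but favours that of Atf4 mRNA. ATF4 in turn switches on genes of amino acid supply and, with prolonged stress, Ddit3 and Trib3. The response is best known in tissues that secrete much protein, such as liver, and several of its genes also respond to feeding and amino acid supply. The arrays measured mRNA only, so that splicing of Xbp1 mRNA, translation of Atf4 and phosphorylation of the sensors were not measured.

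Akt1 is a kinase of the insulin and insulin-like growth factor pathway, and the study asked what changes when 1 of its alleles is missing. All mice were female C57BL/6, and the Akt1+/- mice carried a germline deletion that is present in every cell, so that an effect of Akt1 within a tissue and one from elsewhere in the body cannot be told apart. Each tissue had 14 one-colour arrays in 4 groups, namely Wt and Akt1+/- at 8 weeks, with 3 arrays each, and Wt and Akt1+/- at 35 weeks, with 4 arrays each; the sample labels give the older age as 35 weeks and the methods as 40 weeks. No source used here says which arrays share a mouse, so that p values measure the spread between arrays.

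Akt1 itself was lower on all Akt1+/- arrays than on all Wt arrays of its tissue and age, at 0.609 to 0.715 times the Wt level. Marker sums are the log2 of the summed linear levels of the listed genes, so that the most abundant genes weigh most. Each tissue carried its own markers. The sum of 7 hepatocyte genes was 11.4 to 11.9 in liver groups. That of 8 skeletal muscle genes was 12.3 to 12.7 in muscle, and that of 8 adipocyte genes 10.7 to 11.2 in fat. Pancreatic acinar and oocyte markers summed to at most 0.00993 in every group. The skeletal muscle sum was 3.99 to 6.66 in fat, and the hepatocyte sum reached 5.93 on 1 muscle array, Akt1+/- replicate 3 at 8 weeks, against at most 2.67 on the others. Arrays were printed 4 to a slide. At 35 weeks each genotype and tissue filled a slide of its own, and liver genotypes shared no slide at 8 weeks either, so that there genotype and slide cannot be told apart. No scan day held both ages of a tissue, and age and scan day cannot be told apart. In fat at 35 weeks the genotypes were scanned on different days, so there genotype and scan day cannot be told apart either. At 8 weeks, Wt replicates 1 and 2 in fat and Akt1+/- replicate 2 in liver were scanned on another day than the other arrays of their tissue.

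To show where known ER stress motifs lie, 4 promoters are printed as the 250 bases before the RefSeq start of each gene (build GRCm38.p6, on the gene's strand, 5′ to 3′), with the fixed letters of a motif match in capitals. Hspa5 (chr2:34771840-34772089, plus strand) and Hsp90b1 (chr10:86705445-86705694, minus strand) hold the ER stress response element, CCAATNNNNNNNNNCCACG, Herpud1 (chr8:94386179-94386428, plus strand) holds the second form of that element, ATTGGNCCACG, and Asns (chr6:7693210-7693459, minus strand) holds TGATGNAA, the form that ATF4 binds together with C/EBP proteins.
Hspa5: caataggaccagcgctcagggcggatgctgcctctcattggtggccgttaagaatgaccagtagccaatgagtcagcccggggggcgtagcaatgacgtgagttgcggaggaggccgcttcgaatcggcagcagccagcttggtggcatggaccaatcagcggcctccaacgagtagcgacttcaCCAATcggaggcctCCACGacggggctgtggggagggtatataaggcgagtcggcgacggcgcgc
Hsp90b1: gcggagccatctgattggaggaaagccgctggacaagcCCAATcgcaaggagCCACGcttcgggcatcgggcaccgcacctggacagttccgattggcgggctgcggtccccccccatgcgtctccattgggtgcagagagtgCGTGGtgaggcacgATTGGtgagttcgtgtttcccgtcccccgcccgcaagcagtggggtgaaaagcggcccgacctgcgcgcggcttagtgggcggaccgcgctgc
Herpud1: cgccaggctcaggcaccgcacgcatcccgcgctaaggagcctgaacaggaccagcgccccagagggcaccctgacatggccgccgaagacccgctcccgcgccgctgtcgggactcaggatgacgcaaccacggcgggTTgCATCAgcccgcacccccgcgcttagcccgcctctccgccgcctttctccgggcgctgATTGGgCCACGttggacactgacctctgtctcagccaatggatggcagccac
Asns: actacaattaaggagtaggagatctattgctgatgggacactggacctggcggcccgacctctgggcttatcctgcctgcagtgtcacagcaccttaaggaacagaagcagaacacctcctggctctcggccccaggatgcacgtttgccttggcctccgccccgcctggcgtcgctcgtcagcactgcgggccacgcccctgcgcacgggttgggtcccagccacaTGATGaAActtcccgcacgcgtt
Both strands were searched. The first element is in 2 of the 10 genes' windows and in 0.113% of 32851 promoter windows, with 2 matches in Hsp90b1. The second is in 1 of 10 and in 0.0304% of all, and TGATGNAA is in 3 of 10 (Asns, Atf3 and Herpud1) and in 3.45% of all. Neither TGACGTGG, bound by XBP1 and ATF6, in 0.563% of all windows, nor TGACGTCA, the cyclic AMP response element, in 1.55%, is in any of the 10. These are matches of letters in 1 window per gene, and the windows of Dnajb9, Xbp1, Ddit3, Atf4 and Trib3 held none.

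**Figure D1:**
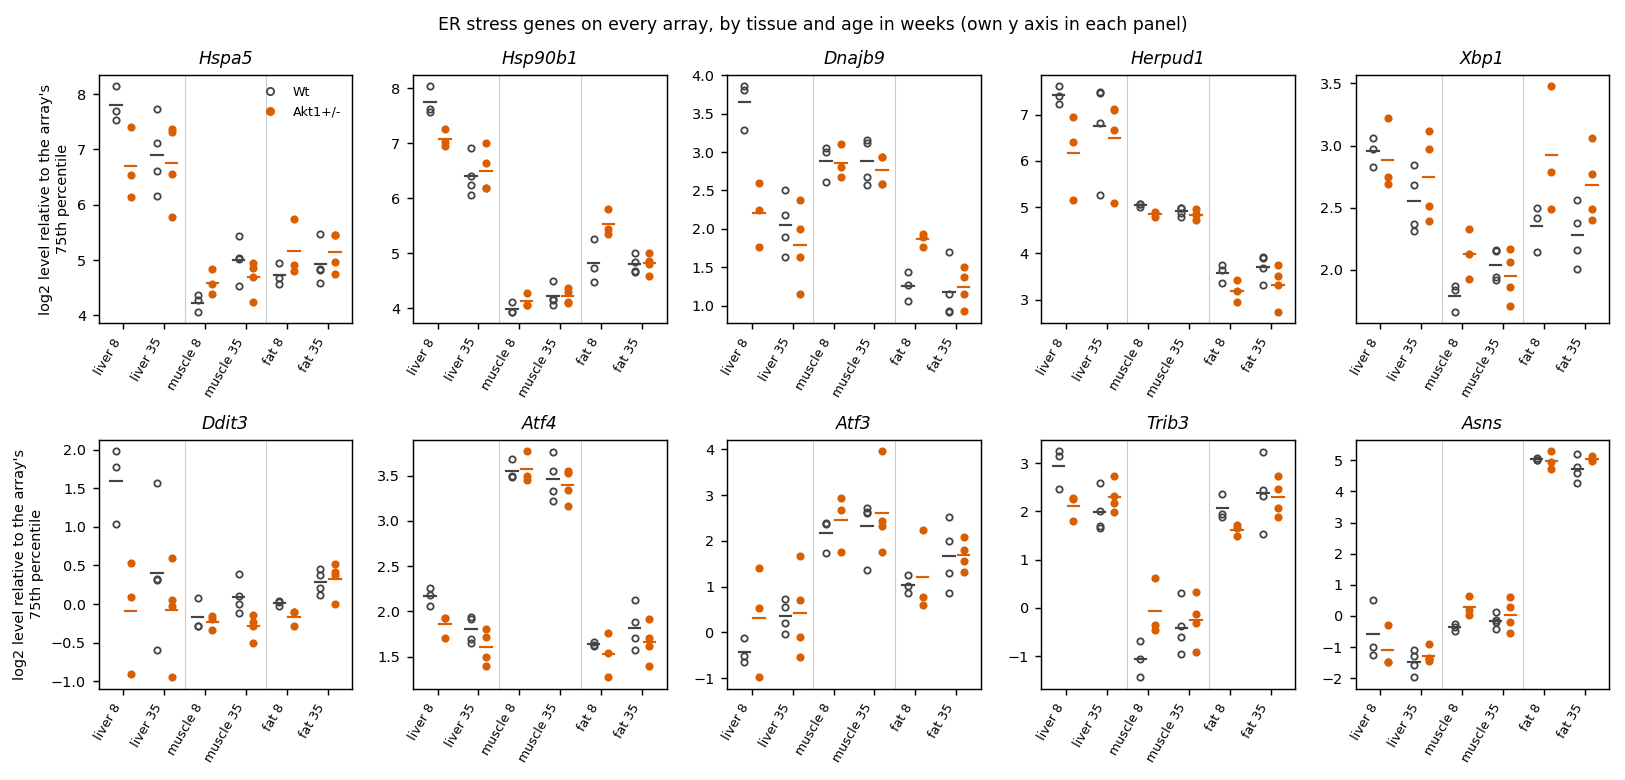
Level of the 10 genes on all 42 arrays, as log2 intensity relative to the 75th percentile of the array (y axis, a separate scale in each panel), by tissue and age in weeks (x axis). Points are arrays, open for Wt and filled for Akt1+/-, and bars are group means; Asns lies near 5 in fat and near or below 0 elsewhere, and Wt at 8 weeks has the highest mean of the 4 liver groups for every gene except Atf3.

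These genes differed between tissues in more cases than between genotypes or ages. Levels are given on the log2 scale relative to the 75th percentile of the array, and they compare 1 gene between tissues but not one gene with another. Over the 14 arrays of each tissue, and in 1 limma fit of all 42 arrays, all 10 genes differed between liver and muscle with an adjusted p below 0.05, 8 between liver and fat and 9 between muscle and fat. These counts lie close to the background, since 85.8%, 86.2% and 87.6% of 19867 genes differed in the same comparisons. By direction, 6 of the 10 were higher and 4 lower in liver than in muscle (40.5% and 45.2% of all genes), 6 higher and 2 lower in liver than in fat (44.2% and 42%), and 4 higher and 5 lower in muscle than in fat (43.9% and 43.7%).

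The ER chaperones were highest in liver. Hspa5, which encodes the chaperone BiP that also holds the sensors inactive, had a mean level of 7.01 ± 0.71 in liver (SD, n = 14), 4.66 ± 0.38 in muscle and 5.0 ± 0.37 in fat. It was 5.31-fold higher in liver than in muscle (log2 difference 2.41 ± 0.17 SE, limma adjusted p = 7.28e-15), and the lowest liver, at 5.77, lay just above the highest fat array, at 5.75. Hsp90b1, the ER form of the HSP90 chaperone, was 6.91-fold higher in liver than in muscle and 3.83-fold higher than in fat. Dnajb9, a co-chaperone of BiP, followed another order: it was highest in muscle, at 2.84 ± 0.22, then liver, at 2.35 ± 0.81, and fat, at 1.36 ± 0.36. The liver and muscle ranges of Dnajb9 overlapped, from 1.16 to 3.86 and from 2.57 to 3.15.

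Herpud1, a membrane protein that helps degrade misfolded ER proteins, was 9.61-fold higher in liver than in fat (log2 difference 3.26 ± 0.20, adjusted p = 1.91e-16) and 3.48-fold higher than in muscle. The spread of Herpud1 was also unlike: the SD was 0.89 in liver and 0.11 in muscle (n = 14 each). Among the transcription factors, Xbp1 was 1.75-fold higher in liver than in muscle and 1.17-fold higher than in fat. Atf4 and Atf3 were highest in muscle, Atf4 3.12-fold and Atf3 4.66-fold above liver. Atf4 levels of muscle, from 3.16 to 3.77, did not overlap those of liver and fat, which lay between 1.27 and 2.26. Ddit3, the proapoptotic factor CHOP, differed between liver and muscle (1.52-fold, adjusted p = 0.00108) but not detectably between liver and fat (0.34 ± 0.16, adjusted p = 0.0527) or muscle and fat (-0.26 ± 0.16, adjusted p = 0.130).

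Asns, asparagine synthetase, showed the largest tissue difference of the 10. Its level was 4.93 ± 0.26 in fat, -0.05 ± 0.38 in muscle and -1.15 ± 0.61 in liver, so that fat exceeded liver 66.1-fold (adjusted p = 1.81e-27) and muscle 31.7-fold. The lowest fat array, at 4.28, lay far above the highest of the other tissues, at 0.63. Trib3, a pseudokinase that binds AKT and is induced by ATF4 and CHOP, was lowest in muscle, at -0.43 ± 0.58, against 2.31 ± 0.49 in liver and 2.12 ± 0.50 in fat. Liver and fat did not differ detectably for Trib3 (0.24 ± 0.17, adjusted p = 0.170). On the 1 slide that held both tissues, 1 liver and 2 muscle arrays of Akt1+/- mice at 8 weeks, the liver minus muscle difference had the same sign as over all arrays for all 10 genes. A lower level in a bulk tissue cannot tell fewer cells of a type from less RNA per cell.

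In liver, Dnajb9 passed for genotype at 8 weeks and none of the 10 genes did at 35 weeks, but no change of the difference with age passed. The levels of Dnajb9 at 8 weeks were 3.28, 3.80 and 3.86 in Wt and 2.25, 2.60 and 1.77 in Akt1+/- livers. Every Akt1+/- array lay below every Wt array. In older Wt livers Dnajb9 was at 1.63, 1.90, 2.50 and 2.18, and in older Akt1+/- livers at 1.16, 1.64, 2.38 and 2.00, with overlapping ranges. The difference at 8 weeks was -1.44 ± 0.32 (log2, SE), a level 0.369 times that of Wt, with a limma adjusted p of 0.0395, and it was the only one of the 10 to pass, where 2.16% of 17569 genes passed in either direction and 0.968% were lower. That call was kept in 5 of 14 fits that left out 1 array, with adjusted p from 0.0269 to 0.137, the highest without Wt replicate 3 of 8 weeks. At 35 weeks the difference was -0.26 ± 0.27 (adjusted p = 0.695). These values are those of the brightest Dnajb9 probe. With probes tested apart, the other Dnajb9 probes gave -1.30 (limma adjusted p = 0.101) and -1.26 (limma adjusted p = 0.0661) at 8 weeks, and neither passed.

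Of the other 9 liver genes, 6 were separated in the same direction at 8 weeks, and none of the 9 passed the test. Ddit3 was at 1.03, 1.77 and 1.98 in Wt and at 0.09, 0.53 and -0.90 in Akt1+/- livers, a difference of -1.69 ± 0.53 (adjusted p = 0.107). Hspa5 was at 7.54, 7.70 and 8.15 in Wt and at 6.14, 7.41 and 6.54 in Akt1+/- livers, a difference of -1.10 ± 0.47 (adjusted p = 0.208). Herpud1 was at 7.40, 7.62 and 7.22 against 6.41, 6.95 and 5.16, a difference of -1.24 ± 0.65 (adjusted p = 0.299). For these 3 genes too, no Akt1+/- liver reached a Wt liver. Hsp90b1 (-0.67 ± 0.25), Trib3 (-0.84 ± 0.28) and Atf4 (-0.31 ± 0.13) were separated in the same way, so that 7 of the 10 genes were lower in Akt1+/- without overlap, where 14.1% of all genes tested were (25.2% in either direction). Xbp1 (-0.07 ± 0.21), Asns (-0.50 ± 0.43) and Atf3 (0.75 ± 0.58) overlapped. With 3 arrays against 3, a two-sided exact permutation test cannot go below p = 0.1, and each of the 7 genes gave that value. The median difference of the 10 genes was -0.76, and that of all genes -0.01.

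At 35 weeks 5 of the 10 liver genes were lower and 5 higher in Akt1+/-, none was separated (12.6% of all genes were, in either direction), and no difference passed (3.56% of all genes did). A change of the genotype difference with age was tested as an interaction. None of the 10 genes passed in liver (0.563% of all genes did), with Trib3 the lowest at adjusted p = 0.185, and 3 had an unadjusted p below 0.05. The genotype difference over both ages passed for Dnajb9 alone, at -0.85 ± 0.21 (adjusted p = 0.0362), where 6.26% of 17569 genes passed and 2.52% were lower. Ddit3 (-1.09 ± 0.35, adjusted p = 0.0799) and Atf4 (-0.25 ± 0.09, adjusted p = 0.0997) were the next. The Dnajb9 call was also kept in 5 of 14 fits that left out 1 array, being lost without Wt replicates 2 and 3 or Akt1+/- replicates 1 and 3 of 8 weeks and without Wt replicates 2, 3 and 4 or Akt1+/- replicates 1 and 4 of 35 weeks, and its adjusted p ranged from 0.00142 to 0.0876 over the alternatives. The other Dnajb9 probes gave -0.69 (adjusted p = 0.123) and -0.68 (adjusted p = 0.0791), with probes tested apart.

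Some genes listed as markers of other cell types also differed between the liver groups. The log2 of the summed levels of 8 adipocyte markers was 3.5 to 3.8 in Wt and 4.52 to 6.72 in Akt1+/- livers at 8 weeks. Over both ages 2 of 4 tested markers were called, both higher, where 6.26% of 17569 genes were called. They were the lipid droplet protein gene Cidec (2.01 ± 0.47) and the lipase gene Lipe (0.34 ± 0.09). At 8 weeks 3 of the 8 were well above background on all Wt livers and 4 on none. In Akt1+/- livers these numbers were 3 and 5, so the sum rests on few of the markers. The macrophage marker sum was 4.53 to 4.85 in Wt and 5.09 to 5.50 in Akt1+/-, and that of B cell and plasma cell markers 0.08 to 0.55 against 1.24 to 1.48. The hepatocyte sum was 11.7 to 11.9 in Wt and 11.4 to 11.6 in Akt1+/- livers. The part of these shifts in the ER stress gene differences was not tested.

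**Figure D2:**
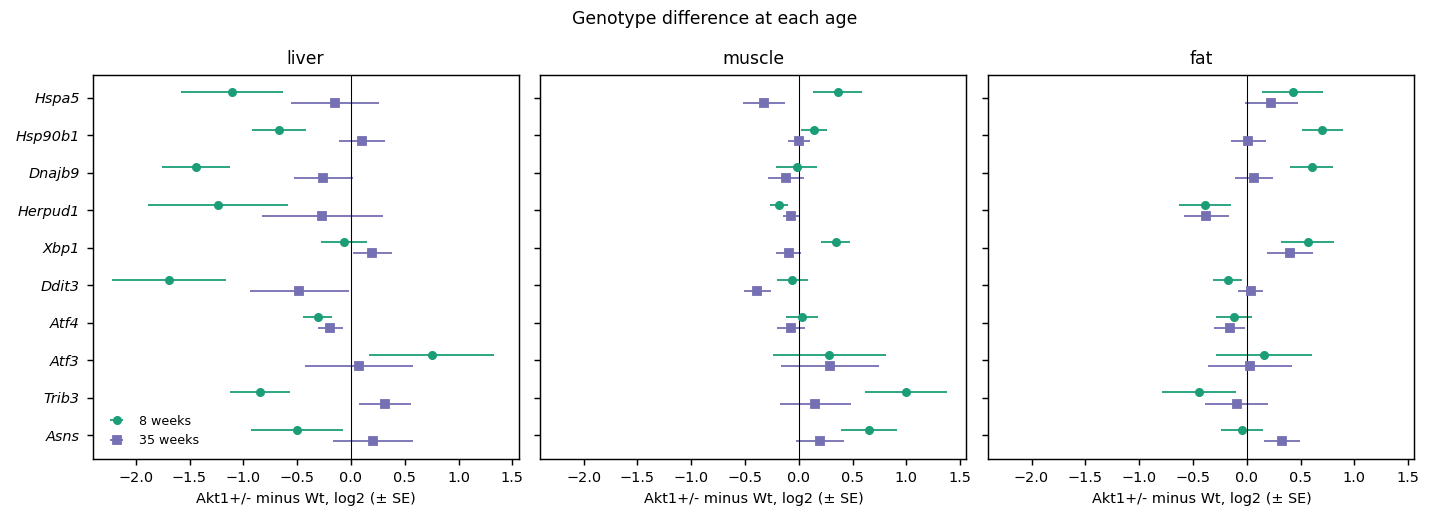
Genotype difference of each gene at 8 weeks (circles) and 35 weeks (squares) in each tissue, as Akt1+/- minus Wt on the log2 scale with its SE (x axis). In liver 9 of 10 genes lie left of 0 at 8 weeks and 5 of 10 at 35 weeks, and the liver Dnajb9 difference at 8 weeks is the one with an adjusted p below 0.05.

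In muscle and fat no gene of the 10 passed for genotype. Limma called 0% of 17152 genes in muscle (3173 genes had an unadjusted p below 0.05, 4 of the 10 among them) and 0.822% of 18373 genes in fat. Within an age none passed either, where limma called 0% at 8 weeks (2710 genes had an unadjusted p below 0.05, 4 of the 10 among them) and 0.0991% at 35 weeks in muscle, and 1.85% and 1.72% in fat. In muscle at 8 weeks, Trib3 was at -1.05, -1.44 and -0.69 in Wt and at -0.46, -0.35 and 0.62 in Akt1+/-, and Asns at -0.35, -0.47 and -0.27 against 0.04, 0.19 and 0.63. Both were higher on every Akt1+/- array, by 1.0 ± 0.38 (adjusted p = 0.248) and 0.65 ± 0.26 (adjusted p = 0.260). On the slide that held all 3 Wt muscles and 1 Akt1+/- muscle of this age, the differences were 0.60 for Trib3 and 0.41 for Asns. The highest of these values belonged to the Akt1+/- array with the hepatocyte markers, and without it the differences over both ages were 0.40 and 0.34, against 0.57 and 0.43 with it. Macrophage markers summed to 1.54 to 2.57 in Wt and 2.63 to 3.07 in Akt1+/- muscle at this age and adipocyte markers to 7.29 to 7.55 and 7.62 to 8.36, and their part was not tested. Hspa5 and Xbp1 were also higher and Herpud1 lower without overlap, so that 5 of the 10 genes were separated in muscle at 8 weeks (22.4% of all genes). At 35 weeks Ddit3 was separated (5.54% of all genes), at -0.00, 0.10, 0.39 and -0.11 in Wt and -0.23, -0.29, -0.14 and -0.50 in Akt1+/-, with an exact two-sided permutation p of 0.0286, the smallest that 4 against 4 arrays allow, and a limma adjusted p of 0.333.

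In fat at 8 weeks, Hsp90b1 was at 4.48, 4.73 and 5.26 in Wt and at 5.44, 5.34 and 5.80 in Akt1+/-, a difference of 0.70 ± 0.19 (adjusted p = 0.0679). Dnajb9 was at 1.44, 1.07 and 1.27 against 1.90, 1.93 and 1.77, a difference of 0.60 ± 0.20 (adjusted p = 0.106). These chaperone genes were thus higher on all Akt1+/- fat arrays, while Ddit3 (-0.18 ± 0.13) and Trib3 (-0.45 ± 0.34) were lower on all. In total 4 of the 10 genes were separated at 8 weeks (27.1% of all genes) and none at 35 weeks (9.88%). On the slide that held 1 Wt and 3 Akt1+/- fat arrays, the differences were 0.27 for Hsp90b1 and 0.59 for Dnajb9. The skeletal muscle marker sum was 4.99 to 6.66 in Wt and 3.99 to 5.40 in Akt1+/- fat at this age, that of macrophage markers 5.40 to 5.52 against 5.92 to 6.08, that of mesothelial markers 4.70 to 5.24 against 5.38 to 5.88, and that of hepatocyte markers 1.14 to 3.79 against 0.261 to 1.06, and their part was not tested. The interaction with age passed for none of the 10 genes in muscle (0% of all genes; 1439 had an unadjusted p below 0.05, 2 of the 10 among them) or fat (1.65%).

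Whether the genotype difference depended on tissue was tested over all 42 arrays. It did for Dnajb9 (adjusted p = 0.0102), 1 of the 10 genes, where 4.2% of 19867 genes passed. Dnajb9 differed by -0.85 ± 0.21 between genotypes in liver over both ages, by -0.07 ± 0.13 in muscle and by 0.34 ± 0.13 in fat. The liver and fat differences had opposite signs, and the fat difference did not pass within fat (adjusted p = 0.209).

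With age, Dnajb9 and Atf4 were lower in liver, as was Hsp90b1 at its brighter probe, whereas Hspa5 did not pass (-0.42 ± 0.31, adjusted p = 0.326). In Wt livers Hsp90b1 was at 7.62, 7.57 and 8.04 when young and at 6.05, 6.23, 6.91 and 6.4 when older. In Akt1+/- livers it was at 6.95, 7.02 and 7.25 when young and at 6.19, 6.18, 7.0 and 6.63 when older. In Wt the ages did not overlap, and in Akt1+/- the highest older liver lay within the range of the young ones. Over both genotypes Hsp90b1 fell by 0.96 ± 0.16 on the log2 scale (limma adjusted p = 9.21e-04), a level 0.514 times that of 8 weeks. Dnajb9 fell by 1.0 ± 0.21 (adjusted p = 0.00316) and Atf4 by 0.31 ± 0.09 (adjusted p = 0.0164). These 3 were the only genes of the 10 to pass, all lower, where 35.1% of 17569 genes passed and 15% were lower. The median age difference of the 10 genes was -0.40 and that of all genes 0.02. Scaling arrays to their median in place of the 75th percentile moved the median of all genes by -0.20 for age and -0.13 for genotype in liver, and 6 of the 10 genes then passed for age. At 35 weeks 5 of 7 tested B cell and plasma cell markers, led by Jchain (2.24 ± 0.24), and 3 of 8 macrophage markers were higher in liver, and their part was not tested.

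The Hsp90b1 result rested on 1 of its probes. The brighter probe lies at chr10:86120824-86120883 and the other at chr10:86128383-86128442 (mm8, minus strand), and the other gave an age difference of -0.16 ± 0.17 in liver (adjusted p = 0.521). That probe was at 6.26, 6.15 and 6.82 in young Wt livers and at 5.55, 5.55, 6.34 and 5.83 in older ones, and in Akt1+/- livers at 5.70, 5.68 and 5.87 when young and 5.69, 5.71, 6.56 and 6.17 when older. Both probes were lower in the young Akt1+/- than in the young Wt livers, by 0.67 and 0.66, and they parted at 35 weeks. With the mean of both probes, Hsp90b1 fell by 0.56 with age. For Dnajb9 the 3 probes fell by 1.0, 0.75 and 0.57, with adjusted p values of 0.00322, 0.0378 and 0.0508. The dimmer Trib3 probe fell by 0.56 (adjusted p = 0.0209) and the brighter one by 0.38 (adjusted p = 0.127).

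In muscle Hspa5 rose with age, by 0.44 ± 0.15 (1.35-fold, adjusted p = 0.0417), the only one of the 10 genes to pass, where 31.3% of 17152 genes passed and 16.9% were higher. Its levels were 4.06, 4.27 and 4.36 in Wt at 8 weeks and 4.53, 5.04, 5.44 and 5.02 at 35 weeks, without overlap. Young Akt1+/- muscle was at 4.38, 4.83 and 4.56 and older Akt1+/- muscle at 4.24, 4.70, 4.95 and 4.86, and these overlapped. The call was kept in 3 of 14 fits that left out 1 array, those without replicate 1 of either genotype at 35 weeks or Akt1+/- replicate 2 at 8 weeks. Of 8 adipocyte markers, 3 were called higher at 35 weeks in muscle, led by Lep (1.71 ± 0.33). The mean log2 of the summed levels of the 8 was 7.38 at 8 weeks and 7.95 at 35 weeks in Wt muscle. It was 8.04 and 8.06 in Akt1+/- muscle. The part of these markers was not tested.

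In fat Ddit3 rose with age, by 0.39 ± 0.09 (1.31-fold, adjusted p = 0.0115), again the only one of the 10, where 19.2% of 18373 genes passed and 9.94% were higher. Its levels were -0.03, 0.04 and 0.02 in young Wt fat and 0.37, 0.21, 0.46 and 0.12 in older Wt fat, and -0.10, -0.10 and -0.29 in young and -0.00, 0.37, 0.41 and 0.52 in older Akt1+/- fat. Within each genotype all older arrays lay above all young ones, and 1 older Akt1+/- array lay within the range of young Wt fat. The call was kept in all 14 fits that left out 1 array and was lost in 1 fit over all 42 arrays (adjusted p = 0.241). Hsp90b1 (-0.37 ± 0.13, adjusted p = 0.0601) and Dnajb9 (-0.35 ± 0.13, adjusted p = 0.0869) came next in fat, and the second Hsp90b1 probe had the opposite sign there (0.14 ± 0.10). Of the B cell and plasma cell markers, 3 of 8 were higher at 35 weeks in fat, led by the antibody chain gene Jchain (2.10 ± 0.35), and so were 3 of 8 skeletal muscle markers. The mean log2 of the summed levels of all 8 skeletal muscle markers was 5.99 at 8 weeks and 5.36 at 35 weeks in Wt fat. In Akt1+/- fat it was 4.63 and 5.64, so the sum was lower with age in Wt and higher in Akt1+/-. The part of these markers was not tested.

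The age difference depended on tissue for Hsp90b1 (limma adjusted p = 1.73e-04), Dnajb9 (adjusted p = 0.00865) and Atf4 (adjusted p = 0.0336). These are 3 of the 10 genes, a share near the 30.6% of 19867 genes that passed. Hsp90b1 was lower with age in liver and changed by 0.16 ± 0.08 in muscle. Atf4 was lower in liver, at -0.13 ± 0.10 in muscle and at 0.16 ± 0.11 in fat. When probes were averaged, the Dnajb9 dependence on tissue was lost (adjusted p = 0.0708), and that of Atf4 was lost when slide entered as a random block (adjusted p = 0.0744).

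**Figure D3:**
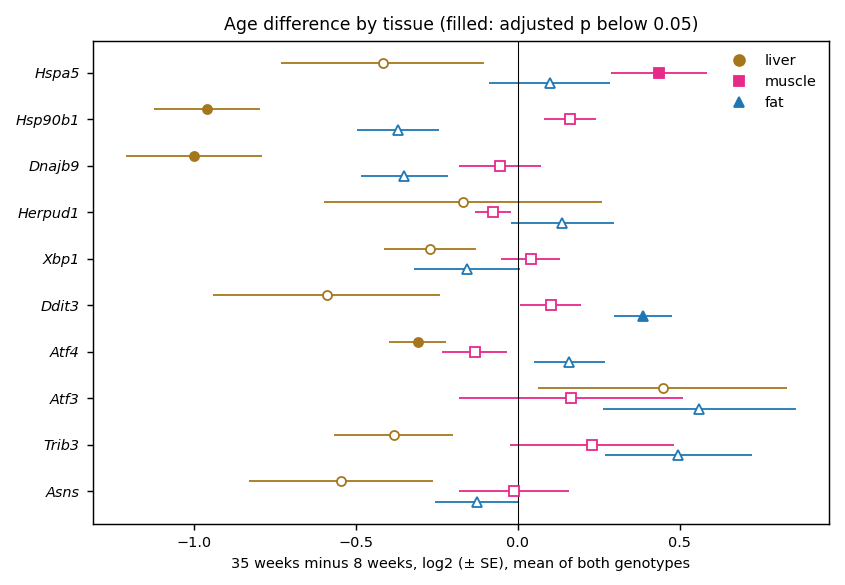
Age difference of each gene in liver (circles), muscle (squares) and fat (triangles), as 35 minus 8 weeks on the log2 scale with its SE (x axis), averaged over both genotypes. Filled symbols have an adjusted p below 0.05 and are Hsp90b1, Dnajb9 and Atf4 in liver, left of 0, and Hspa5 in muscle and Ddit3 in fat, right of 0.

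Arrays of the same group also differed from each other, and some of the 10 genes did so together. At 35 weeks, Herpud1 in liver was at 5.26, 6.81, 7.47 and 7.48 in Wt and at 5.08, 6.66, 7.12 and 7.10 in Akt1+/-. Replicate 1 was the low array in both genotypes, and it held the first position on both slides. The same arrays were the lowest of their groups for Hspa5, at 6.16 and 5.77, for Dnajb9, at 1.63 and 1.16, and for Ddit3, at -0.60 and -0.95. For 6 gene pairs in each of the 3 tissues, 18 relations in all, deviations from group means were correlated over 14 arrays, with permutation p values within groups, adjusted over the 18. The permutations took the arrays as independent. Arrays of the same replicate number in both genotypes deviated together at 35 weeks, so these p values may be too small.

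In liver, Hspa5 went with Dnajb9 (Pearson r = 0.88, permutation p = 0.0017, adjusted 0.015; Spearman rho = 0.88, adjusted 0.0090) and with Hsp90b1 (r = 0.78, permutation adjusted p = 0.039; rho = 0.78, adjusted 0.041). Without the 2 arrays farthest from the Hspa5 median, r was 0.81 and 0.69. Hspa5 and Herpud1 had r = 0.78 (permutation adjusted p = 0.050) and rho = 0.74 (permutation adjusted p = 0.059), and 0.68 without 2 arrays. Within age, r of Hspa5 with Dnajb9 was 0.97 over 8 arrays at 35 weeks and 0.64 over 6 at 8 weeks, and that with Hsp90b1 was 0.90 and 0.36.

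In muscle, Hspa5 went with Hsp90b1 (r = 0.88, permutation adjusted p = 0.015; rho = 0.95, permutation adjusted p = 0.0011), and r was 0.90 without 2 arrays and 0.88 and 0.87 within the ages. Hspa5 and Dnajb9, which moved together in liver, had r = 0.09 in muscle (permutation adjusted p = 0.81), and Hspa5 and Herpud1 had r = -0.66 (permutation adjusted p = 0.12). The difference between these correlations was not tested. In fat none of the 6 pairs passed the adjustment, and r ranged from 0.20 to 0.66. Trib3 with Ddit3 had r = 0.66 in liver (permutation adjusted p = 0.11), and Trib3 with Asns had r = 0.64 in muscle (permutation adjusted p = 0.11) and -0.11 in liver (permutation adjusted p = 0.81). Atf4 with its target Asns passed in no tissue.

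**Figure D4:**
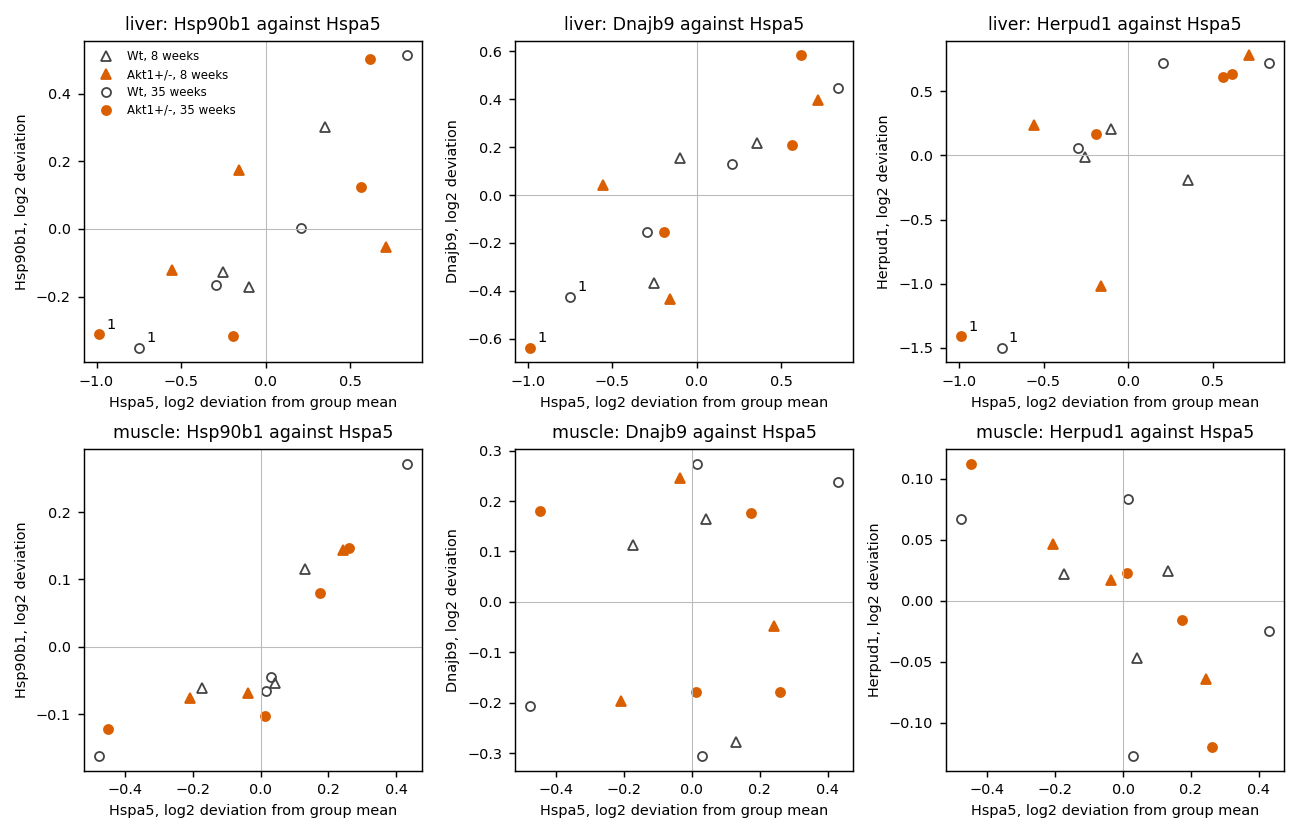
Deviation of Hsp90b1, Dnajb9 and Herpud1 from the group mean (y axes, log2) against that of Hspa5 (x axes, log2) in liver (upper row) and muscle (lower row), with 14 arrays in each panel. Triangles are 8 weeks and circles 35 weeks, open for Wt and filled for Akt1+/-, and the 1 marks replicate 1 of each genotype at 35 weeks in liver; the liver panels rise from left to right, and in muscle the Hsp90b1 panel does.

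Other genes of the pathway were read from lists of 5 kinds, which hold none of the 10 genes. Of 20 ER chaperones and folding enzymes, 7 were lower and none higher at 35 weeks in liver, with a list median of -0.36. The largest changes were those of Pdia4 (fell by 1.07 ± 0.20, adjusted p = 0.00161), Pdia3 (fell by 0.68 ± 0.17), both protein disulphide isomerases, and calreticulin, Calr (fell by 0.63 ± 0.21). Of 19 genes of ER-associated degradation and translocation 6 were also lower and none higher (median -0.13), led by Derl3 (fell by 2.23 ± 0.69, adjusted p = 0.0244), a channel component of degradation, Edem1 (fell by 0.57 ± 0.11), a mannosidase-like protein that marks glycoproteins for degradation, and its relative Edem2 (fell by 0.44 ± 0.08). Of 15 tested UPR sensors and partners, 5 were lower, led by Eif2ak3, which encodes PERK (fell by 0.57 ± 0.17), the ATF6 protease gene Mbtps1 (fell by 0.52 ± 0.10) and, after Eif2ak2, Atf6 itself (fell by 0.44 ± 0.11); 1 was higher, Eif2ak2 (0.51 ± 0.10), the double-stranded RNA-activated kinase. Of all genes, 15% were lower and 20.1% higher in liver.

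ATF4 targets did not move one way in liver. Of 30 tested, 6 were higher and 7 lower with age, with a median of -0.01. The hormone gene Fgf21 (0.82 ± 0.20) and the serine synthesis gene Psat1 (0.66 ± 0.19) were higher and the stress gene Sesn2 lower (-0.65 ± 0.15). For genotype over both ages in liver, 3 degradation genes were lower, Edem1 (-0.49 ± 0.11), Derl2 (-0.39 ± 0.10) and Erlec1 (-0.30 ± 0.07), while no chaperone, sensor or ATF4 target was called. Of all genes, 6.26% were called in this comparison and 2.52% were lower. At 8 weeks the chaperone list median was -0.41, with no gene called, and Edem1 was lower by itself (-0.91 ± 0.17, adjusted p = 0.0253). The median of all genes was -0.007 there, with 2.16% called and 0.968% lower. At 35 weeks the chaperone median was 0.08 and that of all genes 0.02.

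**Figure D5:**
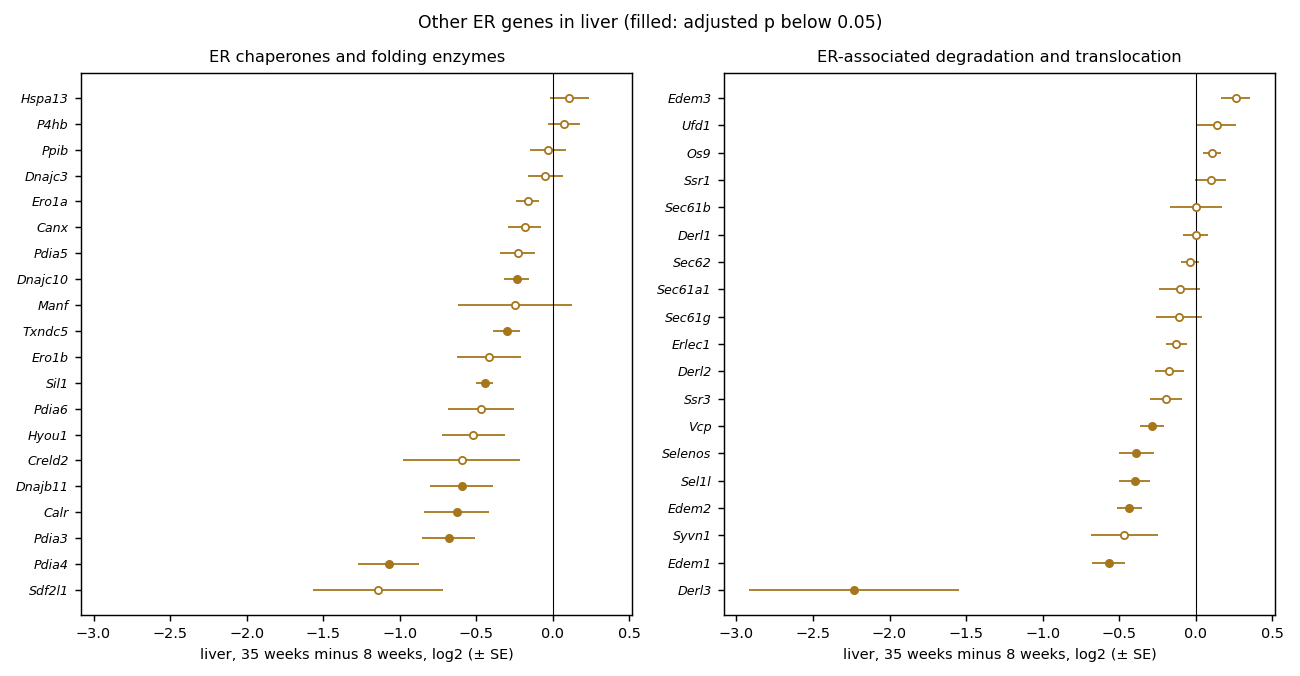
Age difference in liver, as 35 minus 8 weeks on the log2 scale with its SE (x axis), of 20 ER chaperones and folding enzymes (left) and 19 genes of ER-associated degradation and translocation (right), averaged over both genotypes. Filled circles have an adjusted p below 0.05 and number 7 on the left and 6 on the right, all left of 0.

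In muscle and fat these lists were mixed, and of all genes 16.9% were higher and 14.4% lower with age in muscle and 9.94% and 9.30% in fat. Chaperones had 1 higher and 2 lower with age in muscle, namely Sdf2l1 (0.42 ± 0.07), Pdia5 (-0.40 ± 0.09) and Ero1b (-0.32 ± 0.08), and 3 higher and 3 lower in fat, led by Pdia5 (-0.59 ± 0.07), Pdia4 (-0.59 ± 0.11) and Dnajc3 (0.40 ± 0.11). Degradation genes had 4 higher and 4 lower in muscle, led by Ufd1 (-0.62 ± 0.05), Sec61a1 (-0.36 ± 0.08) and Edem2 (-0.36 ± 0.05), and 1 higher and 2 lower in fat, Ufd1 (0.35 ± 0.08), Edem2 (-0.26 ± 0.07) and Sec62 (-0.23 ± 0.06). Of the sensors, the liver-enriched factor Creb3l3 (1.40 ± 0.19) and Ern1, which encodes IRE1 (0.34 ± 0.07), were higher in muscle, and Mbtps1 (-0.63 ± 0.08) and Eif2ak3 (-0.24 ± 0.07) lower in fat. ATF4 targets had 3 higher and 5 lower in muscle, led by Slc7a1 (0.60 ± 0.18), Psat1 (-0.51 ± 0.12) and Nupr1 (-0.47 ± 0.10), and 3 higher and 3 lower in fat, led by Gdf15 (1.23 ± 0.36), Slc7a5 (0.94 ± 0.27) and Cth (-0.65 ± 0.20). No gene of these 4 lists was called for genotype over both ages in muscle (0% of all genes) or fat (0.822%). At 8 weeks in fat, where 1.85% of 18373 genes were called for genotype, Psat1 was lower in Akt1+/- (-0.95 ± 0.20, limma adjusted p = 0.0420). Sec61g, a subunit of the translocation channel, was higher in Akt1+/- there (0.56 ± 0.12, limma adjusted p = 0.0440).

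Immediate-early genes, which respond within minutes to handling or stress and with which Atf3 is often counted, were higher with age in liver for 5 of 20, led by Fos (1.34 ± 0.31), Zfp36 (0.66 ± 0.19) and Ier3 (0.61 ± 0.16), a share near the 20.1% of all genes that were higher. Ier3 was also higher in Akt1+/- liver over both ages (0.69 ± 0.16). It was the only gene of this list called there, where 6.26% of 17569 genes were called. In muscle Junb was higher (1.12 ± 0.28) and Egr2 lower (-0.69 ± 0.15), and in fat none was called for age (9.94% of all genes were higher and 9.30% lower). Atf3 itself was called for neither genotype nor age in any tissue, and its levels within a group ranged widely, at 0.54, -0.98 and 1.41 in young Akt1+/- livers and at 1.67, -0.54, -0.10 and 0.70 in older ones.

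For each gene, the genes with the most similar pattern were found over the 12 group means, each minus the mean of its tissue, among 15493 genes that passed the filter in all tissues. For Dnajb9 they were Dnajb11 (r = 0.98), another ER co-chaperone of BiP, Zc3h7a (0.97) and Tmem39a (0.97), and for Hspa5 they were Ddost (0.95), a subunit of the enzyme that attaches sugar chains in the ER, Cyp39a1 (0.94) and Bag3 (0.94). For Hsp90b1 they were Ythdf2, Pls3 and Pus7 (each 0.96), and for Herpud1 Nat8f1 (0.98), 1600020E01Rik (0.94) and Ogfod3 (0.93). For Ddit3 they were Mvd (0.97), Hint3 (0.97) and Dnajc19 (0.96), for Atf4 Cacul1 (0.97), Syde1 (0.94) and Gm4013 (0.94), and for Atf3 D6Ertd456e (0.97), Clint1 (0.96) and AK040334 (0.96). For Xbp1 they were Cmpk1 (0.96), Sh3gl1 (0.91) and Strn (0.90), for Trib3 Fam149a (0.90), Cdc37l1 (0.88) and the metallothionein gene Mt2 (0.88), and for Asns Napepld (0.95), B230317F23Rik (0.91) and Harbi1 (0.91). None of the 10 genes was among the nearest of another; the highest value between them was 0.91, for Hsp90b1 and Dnajb9, followed by 0.88 for Herpud1 and Ddit3. These values describe 12 means that share arrays, and no test was made.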

How the data were processed

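Total RNA of 42 samples was labelled with Cy3 and hybridised to Agilent Whole Mouse 44K arrays. The deposited scanner output holds spot intensity from Agilent Feature Extraction (9.1 per the labels, 9.5.3.1 per the file headers). The processed intensity is background-subtracted and not normalized between arrays, and mean and background intensity are unprocessed. The authors' deposited table (GeneSpring GX) holds log2 values equal to the log2 processed intensity shifted by a constant per array, with 75th percentiles near 0.

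Levels were log2 processed intensity minus the 75th percentile of the array. A probe was kept if 3 or more arrays of any group had it well above background, and the brightest probe stood for a gene. Group means were fitted per tissue with limma 3.58.1 in R 4.3.3, with Benjamini-Hochberg adjustment over all genes tested. Tissues were compared in 1 fit of 42 arrays. Exact permutation tests and correlations (100000 resamples within groups) were made in Python 3.11.15 with scipy. Probe positions are those of the array, on mm8. RefSeq (GRCm38.p6) served for names and promoters, and all 10 genes matched. On simulated data with 200 genes changed by 1 log2 unit, limma recovered 86.5% (liver), 83.5% (muscle) and 82% (fat) for genotype over both ages. False calls numbered 11, 8 and 9. The simulated arrays had independent noise without slide or replicate effects, and tests within an age were not scored.

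The 10 genes and all lists were chosen with earlier results of these data known, and 1 gene of a list is not reported here. Named genes were the 10, up to 3 called genes with the largest change per list, tissue and contrast, and the 3 nearest patterns of each; others (Atf6, and Mbtps1 and Edem1 in further contrasts) were added after their values were seen. The alternatives were normexp with offset 50 and quantile normalization, median scaling, the authors' log2 values, 2 filters on dim probes, the mean of all probes, the methods' two-way analysis, the replicate number or the slide as a block, 1 fit of 42 arrays, each array left out, and, added after the data were seen, each probe tested apart and within-slide differences.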

Additional observations from a re-analysis of the deposited data

Results flagged for a closer look

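Atf3 in Wt muscle at 35 weeks was at 1.36 on replicate 1 and between 2.60 and 2.72 on the other 3 arrays, a gap of 0.909 of the group's range. Of 60 such groups of 4 arrays this was the only one, and chance alone gives about 1 in 20.

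The age difference differed between liver, muscle and fat for Hsp90b1 (adjusted p = 1.73e-04), Dnajb9 (adjusted p = 0.00865) and Atf4 (adjusted p = 0.0336), and the genotype difference did so for Dnajb9 (adjusted p = 0.0102), each by a limma test of the difference between tissues over all 42 arrays. Scan day and slide differ with tissue and age and, in part, with genotype. With slide as a random block, the limma adjusted p for age was 8.01e-04 for Hsp90b1, 0.0216 for Dnajb9 and 0.0744 for Atf4. For genotype it was 0.0313 for Dnajb9. The part of scan day was not tested.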

How the results depend on the processing

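Of 1440 values of single genes under the alternatives (60 differences for genotype or age), 1349 kept their direction and their side of the threshold, 34 that passed in neither setting changed sign, 32 lost the call, 25 gained it and none that was called changed sign. For genotype in liver, 1 of the 10 genes passed as reported, 3 with median scaling, 2 in 1 fit over 42 arrays, 3 with the replicate block, and 0 with no filter on dim probes, the mean of all probes, the methods' two-way analysis or the slide as a random block; leaving out arrays gave 0 to 2. All these counts are at an adjusted p below 0.05; at the methods' own threshold, an unadjusted p below 0.01, the two-way analysis called Dnajb9 for genotype in liver (11% of all genes), Hsp90b1, Dnajb9 and Atf4 for age in liver (29%), Ddit3 for age in fat (19.1%) and none of the 10 for genotype in muscle or fat, age in muscle or genotype by age. For age in liver it was 3, against 6 with median scaling and 5 in 1 fit over 42 arrays, and 3 to 4 without an array. For age in muscle it was 1, against 0 with normexp and quantile normalization, median scaling, no filter, the two-way analysis or 1 fit over 42 arrays, and 0 to 1 without an array. For age in fat it was 1, against 3 with normexp and quantile normalization, 3 with the replicate block and 2 with the slide as a block, and 1 to 2 without an array. For genotype in fat it was 0, against 1 in 1 fit over 42 arrays, and 0 to 1 without an array, and for genotype by age in fat 0 to 1 without an array (1 without Wt replicate 3 at 8 weeks in both). For age by tissue it was 3, against 5 with median scaling and 5 with the replicate block, and 2 to 4 without an array, and for genotype by tissue 1, against 2 and 4, and 1 to 2. The causes were not tested. Counts over all genes moved more: for genotype in liver 1100 genes were called, against 3132 with median scaling, 2120 in 1 fit over 42 arrays, 358 with no filter and 245 with the slide as a block. In fat it was 151, against 596 in that fit, 242 with the slide block, 44 with no filter and 1 with the replicate block, and in muscle 0, against 305 in that fit, 74, 47 with the replicate block and 1 in the two-way analysis. For genotype by age it was 99 in liver (11 to 383 under 6 alternatives), 303 in fat (58 to 915 under 4) and 0 in muscle (8 and 9 under 2), and for genotype by tissue 835 (1518 with median scaling, 320 with the slide block). For age in fat 3535 genes were called, and 5514 probes when probes were tested apart.

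Arrays of the same replicate number in both genotypes deviated together at 35 weeks (correlation across genes 0.105 to 0.526 in 12 pairs, each highest with its own number, which is also the slide position) but not at 8 weeks (-0.195 to 0.073 in 9 pairs), so the numbers were not taken as pairs. With the number as a block, Herpud1 (adjusted p = 0.0441) and Ddit3 (adjusted p = 0.0443) joined Dnajb9 for genotype in liver, and Hsp90b1 (adjusted p = 0.0405) did so at 8 weeks. For age in liver Xbp1 passed (adjusted p = 0.0498) and Atf4 did not (adjusted p = 0.0557), and for age in fat Hsp90b1 (adjusted p = 0.0272) and Dnajb9 (adjusted p = 0.0333) passed. The block changed no other call of the 10 genes within a tissue, and none at 35 weeks. All 14 probes were well above background on every array, and 3 or 4 arrays per group limit the precision.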
